A study of Mus musculus with 6 samples.

Results

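The mitochondrial ribosomal protein genes are the nuclear genes that encode the proteins of the ribosome inside mitochondria. They were taken from the deposited table of gene counts as the protein-coding genes of GENCODE M21 whose symbol begins with Mrpl (large subunit) or Mrps (small subunit) followed by a digit. This rule gave 78 genes of the 45706 genes in the table (21519 protein-coding), 49 of the large and 29 of the small subunit. A further 5 symbols matched but belong to pseudogenes and were left out. Of the 78 genes, 77 had enough counts to be tested. The remaining gene, Mrpl53, had 4 counts in 1 library and 0 in the other 5.

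The mitochondrial ribosome translates the few messages that are encoded in mitochondrial DNA, all of which specify subunits of the oxidative phosphorylation machinery. Its 2 ribosomal RNAs are transcribed from mitochondrial DNA, whereas all of its proteins are encoded in the nucleus, made in the cytosol and imported. The small subunit binds the message and decodes it, and the large subunit holds the peptidyl transferase centre and the exit tunnel, which opens at the inner membrane. Many of the proteins descend from bacterial ribosomal proteins, and the rest were acquired in mitochondria. In blood-forming cells, long-term stem cells are known for low mitochondrial activity, and mitochondrial translation has been linked to their differentiation and proliferation.

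RNA-seq was performed on sorted LSK cells, which lack lineage markers and carry Sca-1 and c-Kit, the bone marrow compartment that holds hematopoietic stem cells and early progenitors. Ctrl was 3 male C57BL/6 mice with 1 conditional Setd1b allele and 1 allele of Rosa26-Cre-ERT2 (Setd1b HET, FD/+; RC/+), and cKO was 3 such mice with both Setd1b alleles conditional (Setd1b HOM, FD/FD; RC/+). Setd1b is a methyltransferase of histone H3 lysine 4. By the sample labels, all 6 mice received tamoxifen by gavage at 4.5 mg per day, on 4 days and, after a pause, on another 2 days, and LSK cells were sorted 3 days after the last dose, at 16 weeks of age in 5 mice and at 17 weeks in cKO mouse AH74. The paper gives another number of doses, and it describes the mice as littermates without stating which of them share a litter. The Cre is active in almost all tissues, so that the deletion was not limited to blood-forming cells, and the Ctrl mice carry the Cre, the drug and 1 recombined Setd1b allele too.

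Between 13003573 and 21277519 reads per library were counted on genes. The genotype labels could not be checked by the deleted gene. Setd1b was counted over the whole gene, whereas Cre removes a single exon, and its level was higher in the libraries labelled cKO, at 291.5 ± 21.1 against 212.6 ± 16.2 CPM (the counts of a gene scaled to the size of its library, mean ± SD, n = 3 each, log2 fold change 0.46 ± 0.073 SE, adjusted p = 0.00146, edgeR quasi-likelihood test). Directions below are therefore between libraries labelled cKO and libraries labelled Ctrl. Kit and Ly6a, which encode the sorted surface proteins c-Kit and Sca-1, were present in every library, at 395.3 to 514.0 CPM and at 35.8 to 56.3 CPM. By the library numbers that its column names carry, the table falls into 2 groups. The first group has AI03 as its Ctrl library and AI02 and AI55 as its cKO libraries, whereas the second has AI54 and AI56 as Ctrl and AH74 as cKO. What these groups stand for is not given in the sources used here.

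The 77 tested genes were expressed at moderate and rather even levels. Per kilobase of exon, their median level in Ctrl was 15.6 RPKM, compared with 6.32 RPKM over all 15184 tested genes, and the medians of the large and the small subunit were 16.0 and 13.9 RPKM. The highest levels were those of Mrpl42 (91.0 ± 7.98 RPKM, SD, n = 3), a large-subunit protein of mitochondria only, Mrpl18 (76.9 ± 5.52 RPKM), which sits in the central protuberance where bacteria keep their 5S RNA protein, and Mrpl52 (68.5 ± 7.97 RPKM), another large-subunit protein without a bacterial counterpart. Neighbours in this order differed by little more than their spread, and the intervals of 1 SD of Mrpl18 and Mrpl52 overlap. The lowest levels were those of Mrpl23 (2.39 ± 0.700 RPKM), Mrps36 (2.60 ± 0.408 RPKM) and Mrps10 (4.35 ± 0.0782 RPKM). Mrpl23 and Mrps36, whose values overlap, both have processed copies in the genome. The pseudogene Mrpl23-ps1 took 21.1 ± 0.114 CPM in Ctrl, whereas Mrpl23 itself had 4.24 ± 1.24 CPM, so that the level of Mrpl23 is uncertain. All 77 genes together held between 0.255% and 0.290% of the counts of a library, and the share was lower in each library labelled cKO than in each library labelled Ctrl.

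Most of these genes were slightly lower in the libraries labelled cKO than in Ctrl, and few of the differences passed the test alone. The fitted log2 fold change was below 0 for 69 of 77 genes (89.61%), compared with 49.9% of all tested genes, and the median was -0.14 on the log2 scale, whereas the median over all tested genes was 0.00. The differences were small and of similar size, with 51 genes between -0.4 and -0.1 and another 23 within 0.1 of 0. With Benjamini-Hochberg adjustment over all tested genes, 4 members were lower (5.19%, against 3.79% of all tested genes) and 0 were higher (against 3.88%). At an unadjusted p under 0.05, 25 members were lower (32.47%, against 11.5% of all genes) and 0 were higher (against 11.3%). The count of 25 was 14 without Ctrl mouse AI56 and 15 without cKO mouse AI55. DESeq2 called the same 4 genes lower and 0 higher. In 24 members (31.17%) every library labelled cKO lay below every Ctrl library, whereas this held for 13.4% of all tested genes. The opposite order was found in 0 members and in 14.0% of all genes. The share of called genes was thus close to the background, and the shares below 0, without overlap and with a low unadjusted p were above it. In bulk libraries, fewer cells of a type and less RNA per cell cannot be told apart. The paper describes the make-up of the LSK cells at this time as largely similar in cKO and Ctrl, with the data not shown. It also measured Klf1, Mpo and Ighm in sorted subsets of LSK cells, but no gene of this family. What this means for the ribosomal protein genes was not tested.

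**Figure D1:**
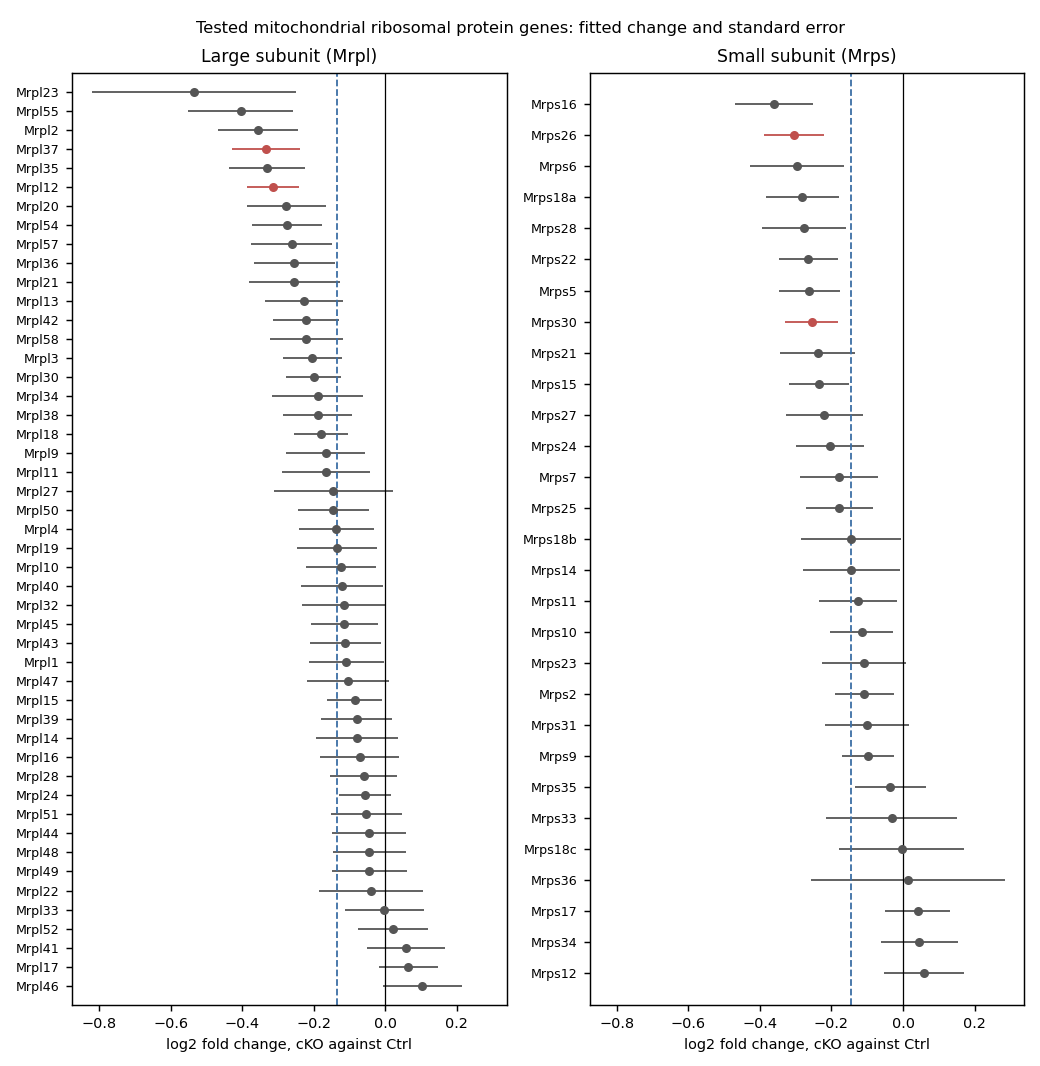
Fitted log2 fold change (cKO against Ctrl, x axis) of the 77 tested mitochondrial ribosomal protein genes, with the large subunit on the left and the small subunit on the right. Bars are 1 SE, red marks the 4 genes with an adjusted p under 0.05 and the dashed line is the median of the subunit (-0.14 for the large and -0.15 for the small). The points form a broad slope that lies mostly left of 0.

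The 4 genes that fell encode a protein of the stalk, a protein of the small subunit and a pair of neighbouring proteins of the large subunit. Mrpl12 encodes the protein of the flexible stalk that recruits translation factors, and it is also known to bind the mitochondrial RNA polymerase. Its gene (ENSMUSG00000039640) lies on chromosome 11 from 120484613 to 120489065 (GRCm38). It was counted at 81.1, 83.2 and 88.6 CPM in Ctrl mice AI03, AI54 and AI56, and at 69.8, 68.6 and 65.1 CPM in cKO mice AI02, AI55 and AH74. All 3 libraries labelled cKO were thus below the lowest Ctrl library, and Mrpl12 fell by 0.31 on the log2 scale (SE 0.072, adjusted p = 0.014, edgeR quasi-likelihood test). Mrps26 encodes a protein of the small subunit that is found in mitochondria only, and its gene (ENSMUSG00000037740) lies on chromosome 2 from 130563742 to 130568695. It was counted at 53.5, 55.3 and 61.0 CPM in Ctrl and at 43.0, 46.8 and 47.8 CPM in the libraries labelled cKO, in the same order of mice. The groups did not overlap, with a log2 fold change of -0.30 (SE 0.085, adjusted p = 0.041).

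Mrpl37 encodes a large-subunit protein that is related to that of Mrps30 and has no bacterial counterpart. Its gene (ENSMUSG00000028622) lies on chromosome 4 from 107055874 to 107066868. It was counted at 47.3, 47.8 and 51.8 CPM in Ctrl mice AI03, AI54 and AI56 and at 40.0, 42.2 and 34.3 CPM in cKO mice AI02, AI55 and AH74, and the lowest of these values was that of AH74. Its log2 fold change was -0.33 (SE 0.095, adjusted p = 0.044, edgeR). Mrps30, despite its symbol, encodes a protein that sits in the large subunit, beside that of Mrpl37. Its gene (ENSMUSG00000021731) lies on chromosome 13 from 118380110 to 118387252. It was counted at 75.2, 69.4 and 76.1 CPM in Ctrl and at 61.8, 60.2 and 62.8 CPM in the libraries labelled cKO, and its log2 fold change was -0.26 (SE 0.074, adjusted p = 0.047). The groups did not overlap for either gene.

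These calls lay near the threshold. When each mouse was left out in turn, Mrpl12 stayed past it in 3 of 6 fits, with adjusted p-values between 0.020 and 0.065, Mrps26 and Mrps30 in 1 fit each and Mrpl37 in 0 fits. The fall itself kept its size, with log2 fold changes between -0.34 and -0.28 for Mrpl12, between -0.34 and -0.25 for Mrps26, between -0.40 and -0.25 for Mrpl37 and between -0.30 and -0.23 for Mrps30. With the library-number group as a covariate, Mrpl12 and Mrpl37 were the 2 members called lower (adjusted p = 0.021 and 0.038), or 2.60% of the members against 3.47% of all genes.

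**Figure D2:**
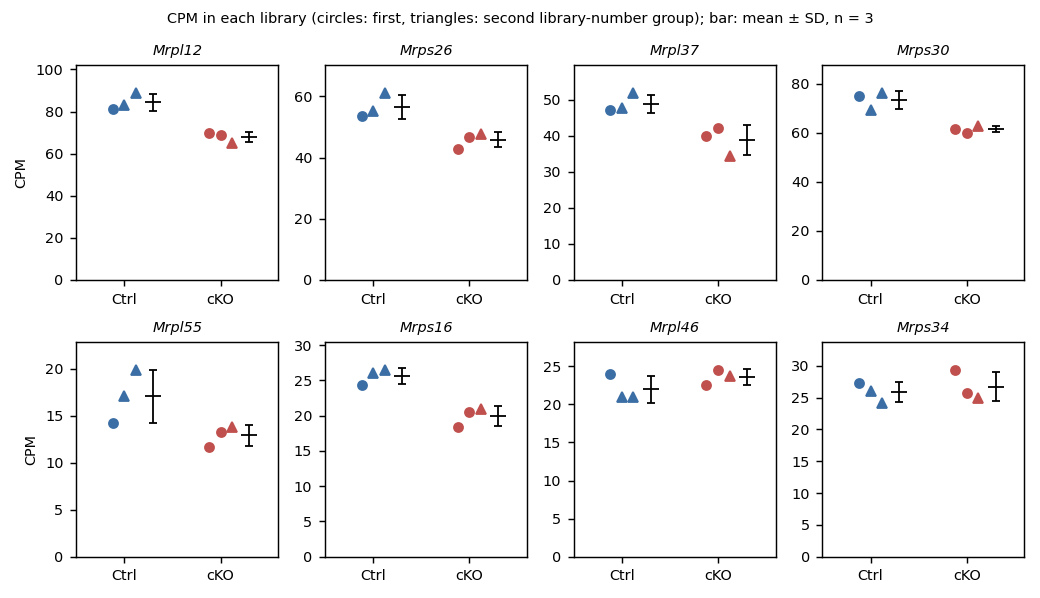
CPM (y axis, from 0) in each of the 6 libraries for the 4 genes that fell (upper row), for 2 of the lowest fold changes that did not pass the test (Mrpl55 and Mrps16) and for 2 of the highest (Mrpl46 and Mrps34). Blue is Ctrl, red is cKO, circles are the first and triangles the second library-number group, and black bars are the mean ± SD (n = 3). In the upper row, every red point is below every blue point, whereas the groups overlap for Mrpl46 and Mrps34.

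The promoters of these 4 genes are shown because the genes differed in the same direction. The sequences are RefSeq's for GRCm38.p6, each from 150 bases before to 30 bases from the annotated start, 5′ to 3′ on the strand of the gene. Capitals mark the letters of NRF1 (GCGCANGCG) and of ETS factors (CCGGAAGT), both found on either strand, and of YY1 (AAGATGGC), which has no complete match in these stretches. The Mrpl12 promoter lies at chr11:120484487-120484666 (plus strand), that of Mrps26 at chr2:130563607-130563786 (plus), that of Mrpl37 at chr4:107066837-107067016 (minus) and that of Mrps30 at chr13:118387223-118387402 (minus).
Mrpl12: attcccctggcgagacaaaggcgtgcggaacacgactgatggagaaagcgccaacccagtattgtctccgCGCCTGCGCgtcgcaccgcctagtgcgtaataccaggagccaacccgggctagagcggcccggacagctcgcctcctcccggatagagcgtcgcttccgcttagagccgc
Mrps26: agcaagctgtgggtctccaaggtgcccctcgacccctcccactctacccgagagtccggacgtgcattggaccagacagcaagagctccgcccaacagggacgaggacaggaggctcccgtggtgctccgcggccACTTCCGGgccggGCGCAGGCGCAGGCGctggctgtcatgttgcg
Mrpl37: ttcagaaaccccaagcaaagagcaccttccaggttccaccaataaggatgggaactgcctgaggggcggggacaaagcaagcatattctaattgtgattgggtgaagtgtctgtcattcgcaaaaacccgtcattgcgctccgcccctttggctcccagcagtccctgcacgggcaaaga
Mrps30: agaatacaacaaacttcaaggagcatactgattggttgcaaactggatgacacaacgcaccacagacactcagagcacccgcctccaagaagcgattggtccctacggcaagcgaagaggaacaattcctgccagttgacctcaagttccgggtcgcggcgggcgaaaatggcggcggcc
Mrpl12 holds 1 match to the NRF1 letters, and Mrps26 holds a match to the ETS letters next to overlapping matches to the NRF1 letters. NRF1 and the ETS factor GABP are known activators of nuclear genes for mitochondrial proteins. Mrpl37 has a match to the YY1 letters that begins inside the printed stretch, near its end, and runs past it, so that it is not marked. Mrps30 holds no match to these 3 motifs in the stretch shown.

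Over the whole family, promoters were found for 69 of 78 genes, 75 promoters in all, each from 250 bases before to 50 bases after the start. The NRF1 letters were present in 16 of them (21.3%), compared with 6.25% of 32851 promoters of the mouse, the ETS letters in 12 (16%, against 3.89%) and the YY1 letters in 12 (16%, against 2.75%). CCAAT was as frequent as elsewhere (40% against 37.4%), and TATAAA was rarer (6.67% against 13.6%). Each was searched on both strands. The median GC content was 58.7% for the members' promoters and 52.7% for all. These matches are a description of the letters. A further shared feature was the arrangement of the genes. A protein-coding neighbour that starts within 1000 bases on the other strand and points away was found for 18 of 78 members (23.1%), compared with 6.76% of 22028 protein-coding genes. Examples are Mrpl54 and Apba3, whose starts lie 26 bases apart, Mrps18c and Helq (29 bases), Mrpl37 and Cyb5rl (120 bases), and Mrps12 and Sars2 (172 bases), the latter of which encodes the mitochondrial seryl-tRNA synthetase. The members are spread over 17 chromosomes, with 11 on chromosome 11 and 8 on chromosome 17.

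Among the genes of the large subunit, 2 of 48 tested were called lower (against 3.79% of all tested genes) and 0 higher, 44 were below 0, and the median log2 fold change was -0.14. The genes were also grouped by the place of their protein in the ribosome. The 3 stalk genes, Mrpl10, Mrpl11 and Mrpl12, were all below 0 (median -0.17). Mrpl10, which anchors the stalk, had a log2 fold change of -0.12 ± 0.098 (SE), and Mrpl11, at its base, had -0.17 ± 0.12, so that Mrpl12 was the stalk gene past the threshold. The 4 genes around the peptidyl transferase centre (Mrpl2, Mrpl3, Mrpl4 and Mrpl16) had a median of -0.17. Among these, Mrpl2 was counted at 31.1, 33.1 and 29.2 CPM in Ctrl mice AI03, AI54 and AI56 and at 23.1, 27.6 and 22.2 CPM in cKO mice AI02, AI55 and AH74. The groups did not overlap, but the difference did not pass the test (log2 fold change -0.36 ± 0.11 SE, adjusted p = 0.065).

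The 8 genes of the central protuberance had a median of -0.16 and ranged from -0.40 (Mrpl55) to 0.10 (Mrpl46). Mrpl55 was counted at 14.2, 17.1 and 19.8 CPM in Ctrl and at 11.7, 13.3 and 13.8 CPM in the libraries labelled cKO. Its groups did not overlap, yet the spread within Ctrl was wide (log2 fold change -0.40 ± 0.15, adjusted p = 0.11). Mrpl46, which was counted at 24.0, 21.0 and 20.9 CPM in Ctrl and at 22.5, 24.5 and 23.8 CPM in the libraries labelled cKO, had the highest value of all members (0.10 ± 0.11, adjusted p = 0.63). Its groups overlapped. Mrpl58, also known as Ict1, which releases peptides from stalled ribosomes and is built into the large subunit, was at -0.22 ± 0.10 on the log2 scale (adjusted p = 0.22). The 7 genes around the exit tunnel had the median closest to 0 of these places (-0.06). Mrpl23, at the rim of the tunnel, had the lowest fitted value of all members (-0.54 ± 0.29, adjusted p = 0.29), with 4.06, 3.10 and 5.57 CPM in Ctrl and 3.15, 3.18 and 2.38 CPM in the libraries labelled cKO. These ranges overlap. Mrpl17 (0.06 ± 0.082) and Mrpl41 (0.06 ± 0.11) were the other large-subunit genes among the highest values, and neither passed the test.

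Among the genes of the small subunit, 2 of 29 by symbol, Mrps26 and Mrps30, were called lower (against 3.79% of all tested genes) and 0 higher, 25 were below 0, and the median was -0.15. Mrps16, whose bacterial homologue takes part in the assembly of the subunit, was counted at 24.3, 26.1 and 26.4 CPM in Ctrl and at 18.4, 20.6 and 21.0 CPM in the libraries labelled cKO. The highest cKO value was below the lowest Ctrl value, and the adjusted p was 0.058 (log2 fold change -0.36 ± 0.11 SE, edgeR). Mrps12, a protein of the decoding centre, had 19.0, 19.3 and 19.9 CPM in Ctrl and 18.8, 20.4 and 21.4 CPM in the libraries labelled cKO (0.06 ± 0.11). Mrps34 was similarly close to 0 (0.05 ± 0.11). In GENCODE M21, 37.0% of its exon bases are shared on the same strand with Nme3, so that its counts are uncertain.

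The paralogues Mrps18a, Mrps18b and Mrps18c, which descend from a single bacterial protein and occupy different sites, had fitted values of -0.28 ± 0.10, -0.15 ± 0.14 and 0.00 ± 0.17. Mrps18a, whose protein sits in the large subunit, was counted at 33.8, 39.3 and 32.2 CPM in Ctrl and at 28.3, 29.3 and 29.2 CPM in the libraries labelled cKO, without overlap (adjusted p = 0.11). Mrps18b and Mrps18c overlapped between the groups. The difference between the paralogues was not tested. Mrps36, which is today assigned to the 2-oxoglutarate dehydrogenase complex and not to the ribosome, had 3.31 ± 0.519 CPM in Ctrl and 3.33 ± 0.617 CPM in the libraries labelled cKO (log2 fold change 0.01 ± 0.27).

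The subunits were compared by their medians, with genes assigned by symbol. The small subunit thus includes Mrps18a and Mrps30, whose proteins sit in the large subunit, and Mrps36, which is not assigned to the ribosome. The result with another assignment of subunits is not given here. The medians of the small and the large subunit differed by -0.0088 on the log2 scale. Taken in each library, the same difference varied with a pooled SD of 0.038 between libraries of the same genotype. This SD describes single libraries and is not the error of a difference between the genotypes. The difference of the medians was less steady without single mice, at -0.049 without AI56, -0.046 without AI03 and -0.043 without AH74. The error of these differences was not estimated. The summed level of the large subunit was 1838 ± 68.5 CPM in Ctrl and 1660 ± 64.1 CPM in the libraries labelled cKO (mean ± SD of 3 mice), and that of the small subunit was 1088 ± 29.2 and 965.6 ± 22.0 CPM. The ratio of the small to the large sum was 0.599, 0.592 and 0.586 in Ctrl mice AI03, AI54 and AI56 and 0.574, 0.576 and 0.596 in cKO mice AI02, AI55 and AH74. These ranges overlap, since AH74 lay among the Ctrl libraries. Divided by origin, the 48 genes with a bacterial homologue had a median of -0.16, with 1 called lower (against 3.79% of all tested genes). The 29 tested genes found in mitochondria only had a median of -0.11, with 3 called lower (against the same 3.79%). These small differences between the subgroups were not tested.

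The libraries themselves showed a graded picture. Taken as the median deviation of the 77 genes from their mean over all libraries (log2 CPM), the Ctrl libraries lay at 0.03 (AI03), 0.08 (AI54) and 0.09 (AI56), and the libraries labelled cKO at -0.02 (AI02), -0.07 (AI55) and -0.12 (AH74). The 2 groups did not overlap, but AI03 and AI02 were close to each other. The sum over both subunits was 2821, 2943 and 3014 CPM in Ctrl and 2717, 2607 and 2551 CPM in the libraries labelled cKO, in the same order of mice. The same deviation over all tested genes was between 0.00 and 0.01 in every library.

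**Figure D3:**
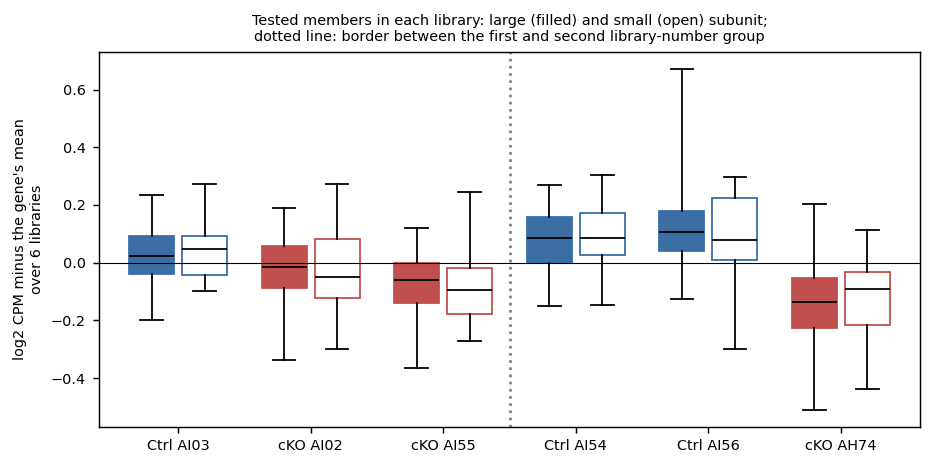
Deviation of each tested gene from its mean over the 6 libraries (log2 CPM, y axis), with large (filled) and small (open) subunit side by side in each library (x axis). Boxes are quartiles, lines in boxes are medians, whiskers reach the lowest and highest gene, blue is Ctrl and red is cKO. The medians are above 0 in the 3 Ctrl libraries and below 0 in the 3 cKO libraries, and the distance is widest in the second library-number group, on the right.

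The shift was larger in the second library-number group, a difference that was not tested. Within the first group, the median log2 CPM difference between cKO and Ctrl libraries was -0.07, with 54 of 77 genes below 0. Within the second group it was -0.24, with 70 genes below 0, and 52 genes were below 0 in both. Of all 15184 tested genes, 7618 were below 0 in the first group, 7482 in the second and 4746 in both. With most members below 0 in each group, many are below 0 in both even without agreement gene by gene. For the large subunit the medians were -0.06 and -0.24, and for the small subunit -0.10 and -0.21, so that the order of the subunits differed between the groups. The single pairs of libraries were graded as well. AI02 differed from AI03 by a median of -0.01 (42 of 77 genes below 0), AI55 from AI03 by -0.11 (57 genes), AH74 from AI54 by -0.23 (68 genes) and AH74 from AI56 by -0.24 (66 genes). Between libraries of the same genotype, the medians lay between -0.07 and -0.02 for pairs of Ctrl mice and between 0.04 and 0.08 for pairs of cKO mice, so that the difference of AI02 from AI03 was within the spread of like libraries. With 1 or 2 libraries per genotype in a group, no test within a group was made. AH74 was the only cKO library of the second group and came from the mouse of 17 weeks, and age, library group and mouse cannot be told apart for it. Without AH74 the median over the family was -0.12 and 61 genes were below 0.

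Across the 77 genes, the differences in the first and in the second group had a Spearman correlation of 0.17. The genes are not independent replicates, and each group has its own libraries. Mrpl12 differed by -0.23 in the first and by -0.40 in the second group, Mrps26 by -0.25 and -0.28, Mrpl37 by -0.20 and -0.54, and Mrps30 by -0.30 and -0.21. All 4 were lower in both groups, which had to follow, since every library labelled cKO lay below every Ctrl library for each gene. The 2 groups are thus no separate check of these calls.

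**Figure D4:**
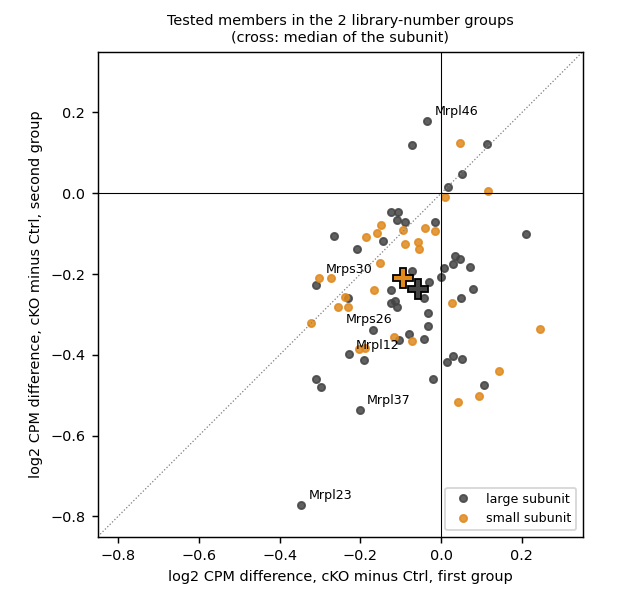
Log2 CPM difference (cKO minus Ctrl) of each tested gene in the first (x axis) and the second (y axis) library-number group, by subunit, with crosses at the medians of the subunits and a dotted line of equal values. Most points lie below 0 on the y axis, and 52 of 77 are below 0 on both axes (4746 of all 15184 tested genes).

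The level or the build of a gene was weakly related to its fold change. Over the 77 genes, the Spearman correlation of the log2 fold change was -0.21 with the Ctrl RPKM, 0.07 with the summed exon length and -0.17 with the GC content of the transcript, all from the same libraries. The members are short, with a median summed exon length of 1848 bases, compared with 3330.5 bases over all tested genes, and their median SE (0.11) was smaller than that of all tested genes (0.13).

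The same ribosome holds proteins whose genes carry other names. The 5 genes Dap3, Ptcd3, Chchd1, Aurkaip1 and Gadd45gip1 were all below 0, with a median of -0.20, and 1 of them was called lower (against 3.79% of all tested genes). Gadd45gip1, which encodes a large-subunit protein, was counted at 77.0, 83.7 and 94.1 CPM in Ctrl mice AI03, AI54 and AI56 and at 70.9, 67.2 and 65.5 CPM in cKO mice AI02, AI55 and AH74. It fell by 0.32 on the log2 scale (SE 0.082, adjusted p = 0.025, edgeR), and with the library-number group as a covariate it did not pass the threshold (adjusted p = 0.051). Dap3, a GTP-binding protein of the small subunit, had a log2 fold change of -0.17 ± 0.084 and Ptcd3, an RNA-binding protein of the small subunit, of -0.20 ± 0.085.

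The genes that build or serve the mitochondrial ribosome had medians between -0.06 and -0.04 over all 6 libraries, and their difference from the ribosomal protein genes was not tested. Over all tested genes, 3.79% were called lower and 3.88% higher, and 11.5% were lower with an unadjusted p under 0.05. Of 28 genes for its assembly, such as RNA methyltransferases and GTPases, 0 were called in either direction by edgeR's quasi-likelihood test, 2 had an unadjusted p under 0.05 and were lower, and the median was -0.04. Of 15 mitochondrial translation factors, 1 was called lower and 0 higher, with a median of -0.06. The median of these factors was -0.13 in the first and 0.03 in the second library-number group, the opposite order to that of the ribosomal protein genes. The called gene was Gfm1, which encodes the elongation factor that moves the ribosome along the message. It was counted at 96.3, 97.3 and 102.8 CPM in Ctrl and at 86.1, 79.3 and 76.5 CPM in the libraries labelled cKO (log2 fold change -0.29 ± 0.071 SE, adjusted p = 0.020). Of 23 genes for transcription and RNA processing in mitochondria, 0 were called, 3 had an unadjusted p under 0.05 and were lower, and the median was -0.04. The ribosomal RNAs of the same particle, mt-Rnr1 (small subunit) and mt-Rnr2 (large subunit), differed by 0.04 ± 0.070 and -0.01 ± 0.057 on the log2 scale. Neither passed the test.

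Other groups of genes differed between the same libraries, and their part in the shift of the ribosomal protein genes was not tested. Over all tested genes, 3.79% were called lower and 3.88% higher, which is the background for each list in this paragraph. Of 30 cell cycle genes, 3 were called lower and 0 higher, with a median of -0.07. These were Cdt1 (-0.26 ± 0.070, adjusted p = 0.036, and 0.062 with the library-number group as a covariate) and Cdc6 (-0.29 ± 0.083, adjusted p = 0.047), which license replication origins, and Mcm5 (-0.68 ± 0.19, adjusted p = 0.042), a subunit of the replicative helicase, which had 329.8 CPM in AI55 but 171.5 and 155.4 CPM in AI02 and AH74. Mcm5 did not pass with DESeq2 (adjusted p = 0.276) and passed in 1 of the 6 fits that left out a mouse. Among marker genes of LSK cells and their stem cells, Procr, a surface receptor of stem cells, and Mecom, a transcription factor of stem cells, were called higher (log2 fold changes 1.43 ± 0.19 and 0.45 ± 0.082 SE). Of 14 granulocyte and monocyte genes, 10 were tested, 8 were lower and 1 was higher, and the sum was 2978 to 3583 CPM in Ctrl and 577.9 to 904.3 CPM in the libraries labelled cKO. Most of that sum in Ctrl was Mpo, the myeloperoxidase of myeloid progenitors and granulocytes (2299 to 2933 CPM). In the libraries labelled cKO, Mpo was at 265.1 to 459.9 CPM. Ly6g and Camp, which mark mature neutrophils, were at 0 in 5 of 6 libraries each. Of 13 erythroid genes, 8 were tested and 5 were lower (142.5 to 195.3 CPM against 41.4 to 50.1 CPM), and Slc4a1 was at 0 in 5 libraries. Of 12 genes of B and plasma cells, 6 were tested and 3 were lower (220.7 to 469.1 against 99.0 to 154.6 CPM), of 12 genes of T and NK cells, 6 were tested and 2 were lower (63.3 to 75.0 against 40.5 to 48.6 CPM), and Cd3e was at 0 in 5 libraries. Of 10 genes of stroma and endothelium, 6 were tested, 3 were lower and 1 was higher (150.8 to 178.4 against 140.7 to 143.6 CPM). The sums of these 5 lists of other cell types thus did not overlap between the genotypes, like the sum of the ribosomal protein genes.

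In GENCODE M21, 8 members share exon bases with another gene on the same strand, and reads there may be counted for neither gene. The share was largest for Mrpl53, with 88.0% of its exon bases shared with Gm42688, followed by Mrps34 (37.0%), Mrps18c (23.2%) and Mrps6 (19.9% with Gm49711). None of the 4 genes that fell is among these 8. The counts were made on Ensembl gene models, in which these shares were not computed. For Mrps6, the summed exon length is 1533 bases in GENCODE M21 and 1053 bases in the counted models.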

How the data were processed

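RNA of sorted LSK cells from 6 mice was sequenced with a stranded total RNA kit, 1 library per mouse (13003573 to 21277519 counts). The authors aligned the reads to GRCm38 with GSNAP and deposited raw counts of uniquely aligned reads per gene, made with featureCounts 1.5.0 on Ensembl gene models, with no normalization. They also deposited the summed exon length. Symbols and biotypes came from GENCODE M21, by identifier (98.8% of IDs). In that annotation, 55 of the 78 members have the same start and end as in the table.

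From the counts, expression was tested with edgeR 4.0.16 in R 4.3.3 (TMM, filterByExpr with defaults, 15184 genes, quasi-likelihood test on all 6 libraries, genotype only, Benjamini-Hochberg adjustment over all genes, threshold 0.05). The paper used DESeq2, which is an alternative here (version 1.42.0). CPM used TMM factors (0.945 to 1.03), log2 CPM a prior count of 2, and RPKM is CPM per 1000 bases of exon. The SE was derived from the size of the log2 fold change and the F statistic. Differences within a library-number group are between mean log2 CPM. With 3 mice a group, an exact two-sided permutation test of a single value could not go below p = 0.1, so that none was made. The procedure was tested on simulated counts. The members and lists were chosen with earlier results of these data known. Named were Setd1b, all members past the threshold, the 5 lowest and 5 highest fold changes, the 3 highest and 3 lowest levels in Ctrl, the Mrps18 paralogues, Mrps30, Mrps36 and the called genes of the other lists, and any other gene was picked with its values in view. Places and origins of the proteins were assigned from background knowledge, after the data had been seen. Promoters are those of RefSeq (GRCm38.p6). Protein sequences were not used here, and some items are not reported.

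Alternatives were other size factors, DESeq2, other filters on low counts, removal of length or GC trends or of abundant genes, the library-number group as a covariate, a stricter threshold, another assignment of subunits, means for medians, and leaving out each mouse.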

Additional observations from a re-analysis of the deposited data

How the results depend on the processing

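No member was called higher under any of the alternatives run, and the median of the members stayed below 0 in all of them. The number of members called lower was 4 with the settings reported (against 3.79% of all tested genes). It was 2 with the library-number group as a covariate (against 3.47%) and 0 at an adjusted p under 0.01. With no filter on low counts (25890 genes tested) it was 7, with the GC trend removed (15111 genes tested) 7, and with the length trend removed 5. The share of all genes called under these last 3 settings is not given here, so that their counts cannot be set against it. Without 1 mouse, the number of members called lower lay between 0 and 3. It was 0 without Ctrl mouse AI56, cKO mouse AI55 or cKO mouse AH74, so that the calls rest on all of these libraries. The share of all genes called without 1 mouse is not given here either, so that this drop cannot be set against it. The cause of the drop was not tested, except that fewer libraries enter these fits. The median log2 fold change (-0.144) lay between -0.1864 and -0.1155 without 1 mouse. The difference between the subunits lay between -0.0486 and -0.006881 without 1 mouse, and with the library-number group as a covariate it was 0.0149. With the length or the GC trend removed it was -0.034. The error of this difference was not estimated. For the 5 ribosomal proteins with other symbols, 1 was called lower with the settings reported and 0 with the covariate. Means in place of the medians within the library-number groups, a setting chosen after seeing the data, were -0.079 and -0.229. DESeq2, its size factors, a minimum of 10 counts in every library and removal of abundant genes each called 4 members, the same genes. The share of all genes called under these settings is not given here. No paired analysis was possible because the labels give no replicate numbers and no litters. The mice are described as littermates, but which mouse of each genotype shares a litter is not given in the sources used here. A tested member had between 34 and 2239 counts in a library, and the median SE of a member, 0.105, was close in size to the median difference.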
